A study of Mus musculus with 4 samples.

Results

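The genes of glucose uptake, glycolysis, lactate exchange and glycogen metabolism were examined in the ventricles of mice lacking the orphan nuclear receptor ERRα and of wild-type mice. The members were 31 named genes, listed by function. Of these, 28 had at least 1 probe set whose only annotated gene carried the member's symbol, out of 8252 genes named on the array. They had 40 such probe sets, 6 of which were array control probe sets for Gapdh. Of the other 34, 29 probe sets of 25 genes were bright enough to be tested. Pfkfb1, Gpi1 and Eno1 had no probe set under their own symbol. A further 4 probe sets matched only through a synonym, 3 for Pigq, which acts in the synthesis of membrane anchors, and 1 for Pgm2. They were not counted as members.

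The data were 4 one-colour oligonucleotide arrays of total RNA from ventricle, 2 labelled ERRa ko and 2 labelled ERRa wt, all at baseline, that is without pressure overload. The comparison asks how expression differs between the genotypes before any stress. The strain, age and sex of the mice and the design of the deleted allele are not given in the sources used here. Nothing in the labels says that the 2 samples of a genotype came from separate animals, and p-values therefore cover sample-to-sample spread that may be only technical. Each value is a linear signal per probe set, scaled so that all 4 arrays have the same trimmed mean. Before testing, signals under 110 were set to that value and log2 was taken.

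Glycolysis splits glucose into pyruvate in the cytosol and yields ATP without oxygen, and glycogen is the store from which the heart can feed it. The adult heart draws most of its energy from fatty acids and also takes up glucose and lactate. ERRα binds promoters of mitochondrial and fuel-oxidation genes together with its PGC-1 coactivators. Many glycolytic enzymes exist as a form rich in muscle or heart and a form found in other tissues, and each such pair catalyses the same step.

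Since the study's design names ChIP-chip beside the arrays, the promoters of the members were searched for the letters of the receptor's response element. RefSeq promoter windows of build GRCm38.p6, from 250 bases before to 50 after the start, were found for 30 members, in 47 windows. Slc2a4 had none. The 9-letter element TNAAGGTCA, on either strand, was in 1 of 47 member windows (2.13%) and in 1.28% of all 32851 windows. Its 7-letter core AAGGTCA, which every full element contains, was in 3 windows (6.38%, against 4.72% of all), those of Tpi1, Eno1 and Pfkfb1. The E-box CACGTG was in 5 (10.6%, against 7.15%), those of Pfkfb2, Gyg, Slc16a1, Ldha and Pfkm. These matches are descriptions of letters in a window. The windows below are shown 5′ to 3′ on the gene's strand: Tpi1, triose phosphate isomerase, as the member with the full element, Slc2a1, Pfkp and Hk2 as the members whose signals stood furthest from wild type, and Pygm with Pygb as an isoform pair. Capitals mark the element, which runs on the opposite strand over bases 259 to 267 of the Tpi1 window, where base 251 is the start.
Tpi1, chr6:124814109-124814408, minus strand: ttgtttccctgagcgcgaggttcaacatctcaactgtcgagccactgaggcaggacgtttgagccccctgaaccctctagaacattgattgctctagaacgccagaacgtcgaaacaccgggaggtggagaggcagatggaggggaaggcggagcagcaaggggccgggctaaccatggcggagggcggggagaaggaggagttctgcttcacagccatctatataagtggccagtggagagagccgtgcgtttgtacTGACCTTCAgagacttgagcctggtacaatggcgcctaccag
Slc2a1, chr4:119108495-119108794, plus strand: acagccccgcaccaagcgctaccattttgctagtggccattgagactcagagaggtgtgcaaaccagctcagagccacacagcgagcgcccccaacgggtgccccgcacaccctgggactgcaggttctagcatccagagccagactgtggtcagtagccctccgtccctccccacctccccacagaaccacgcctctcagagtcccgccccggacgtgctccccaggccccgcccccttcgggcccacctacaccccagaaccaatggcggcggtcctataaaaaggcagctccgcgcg
Pfkp, chr13:6648722-6649021, minus strand: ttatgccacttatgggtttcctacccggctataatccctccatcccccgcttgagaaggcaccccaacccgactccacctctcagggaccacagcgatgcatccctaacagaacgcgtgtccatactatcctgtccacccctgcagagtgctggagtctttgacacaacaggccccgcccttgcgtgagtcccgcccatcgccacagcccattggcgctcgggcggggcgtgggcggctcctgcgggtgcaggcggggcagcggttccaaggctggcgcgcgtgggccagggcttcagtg
Hk2, chr6:82774405-82774704, minus strand: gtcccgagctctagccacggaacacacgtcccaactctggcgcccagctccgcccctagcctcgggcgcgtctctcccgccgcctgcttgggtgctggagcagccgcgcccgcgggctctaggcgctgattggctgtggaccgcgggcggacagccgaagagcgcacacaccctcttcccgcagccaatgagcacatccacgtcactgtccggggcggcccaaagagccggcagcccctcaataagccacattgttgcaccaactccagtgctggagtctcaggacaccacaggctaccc
Pygm, chr19:6384158-6384457, plus strand: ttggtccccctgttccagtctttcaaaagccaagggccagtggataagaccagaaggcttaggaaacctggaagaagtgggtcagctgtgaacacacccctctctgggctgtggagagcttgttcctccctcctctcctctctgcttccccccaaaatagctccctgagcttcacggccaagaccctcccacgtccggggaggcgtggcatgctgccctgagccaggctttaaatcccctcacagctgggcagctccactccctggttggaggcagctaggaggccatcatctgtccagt
Pygb, chr2:150786546-150786845, plus strand: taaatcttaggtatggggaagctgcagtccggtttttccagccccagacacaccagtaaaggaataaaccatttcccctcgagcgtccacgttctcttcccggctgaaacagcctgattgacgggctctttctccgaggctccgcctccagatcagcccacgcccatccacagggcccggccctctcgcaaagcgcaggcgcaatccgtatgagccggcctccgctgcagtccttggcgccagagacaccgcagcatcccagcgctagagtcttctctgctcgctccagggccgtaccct

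The windows differed in CpG content between isoforms. The ratio of observed to expected CpG was 0.16 for Pygm and 0.80 for Pygb, the muscle and brain glycogen phosphorylases. It was 0.05 for Pgam2 and 0.95 for Pgam1, the muscle and general phosphoglycerate mutases. Muscle enolase, Eno3, had 0.13 against 0.58 to 0.71 in the 3 windows of Eno1. The contrast was not general. Hk2 had 0.76 and the 2 windows of Hk1 had 0.05 and 0.67, and Ldhb had 0.70 against 0.88 and 0.54 for Ldha. The median over the 47 member windows was 0.62, against 0.57 over 21262 windows of protein-coding genes.

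Esrra, the deleted gene, matched the labels. Its weaker probe set gave 2688 and 2828 on the wild-type arrays and 83.6 and 55.2 on the knockout arrays, at least 25.1-fold lower once the floor is applied (limma adjusted p = 0.0441). Its stronger probe set gave 8598 and 8038 against 922.0 and 1050 (log2 -3.08, SE 0.21, limma adjusted p = 0.179). The genes listed as markers of ventricular myocytes were bright on all 4 arrays, with 7 of 8 measured and all 7 above the brightness filter. The summed signal of the 7 was 850432 and 856464 in wild type and 716657 and 863443 in knockout. Of the 7, only 1 had a higher mean in knockout. Without overlap 0 were higher and 2 lower in knockout (20.7% and 16.7% of all probe sets tested). The 2 were troponin genes: Tnnt2, with 99494 and 101481 against 85428 and 89711, and Tnni3, with 176384 and 165705 against 141450 and 165572. Their part in the lower muscle isoforms was not tested. The β-actin ratio of 5′ to 3′ signal, a sign of RNA and labelling quality, was 0.966 and 0.909 in wild type and 0.694 and 0.813 in knockout, and its part in the values that follow was not tested.

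No member passed the threshold. Of 7453 probe sets tested, 0.0134% passed at a limma adjusted p of 0.05, a single Esrra probe set, and among the 29 member probe sets the lowest adjusted p was 0.466. At an unadjusted limma p under 0.05 there were 2 member probe sets, both higher in knockout, against 6.79% of all, 4.13% higher. The same 2, for Slc2a1 and Pfkp, lay at least 1.5-fold above wild type with both knockout arrays beyond both wild-type arrays, and 0 lay below by that measure. That is 6.9% of the member probe sets, against 11.0% of all probe sets tested (6.84% higher and 4.2% lower). Slc2a1 is counted in each of these although its wild-type mean of 202.8 lay under the brightness filter of 350.6. Only its knockout signal carried it past, so the filter favoured a higher call. Over 1 probe set per gene, the strongest, the median log2 difference of the 25 tested genes was -0.0035, with 12 higher and 13 lower, and that of all 5653 genes was 0.01, with 2911 higher.

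The member probe sets were among the brightest on the array. Of 29, 21 lay in the brightest 20% of those tested. Within that class the median size of the log2 difference was 0.11 for the members and 0.16 for all 1491 probe sets. For the 8 dimmer member probe sets it was 0.42. Over all probe sets tested it fell from 0.43 in the dimmest 20% to 0.19 between the 60th and 80th percentiles. The 8 include Slc2a1, which only its knockout signal carried past the filter. The groups did not overlap for 14 of 29 (48.3%, against 37.4% of all), 10 higher (20.7% of all) and 4 lower (16.7% of all) in knockout, mostly by small amounts. The standard errors ran from 0.19 to 0.57 on the log2 scale, so a difference of 1.5-fold, 0.58 on that scale, higher or lower, lay inside the 95% interval of 25 of 29 member probe sets.

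**Figure D1:**
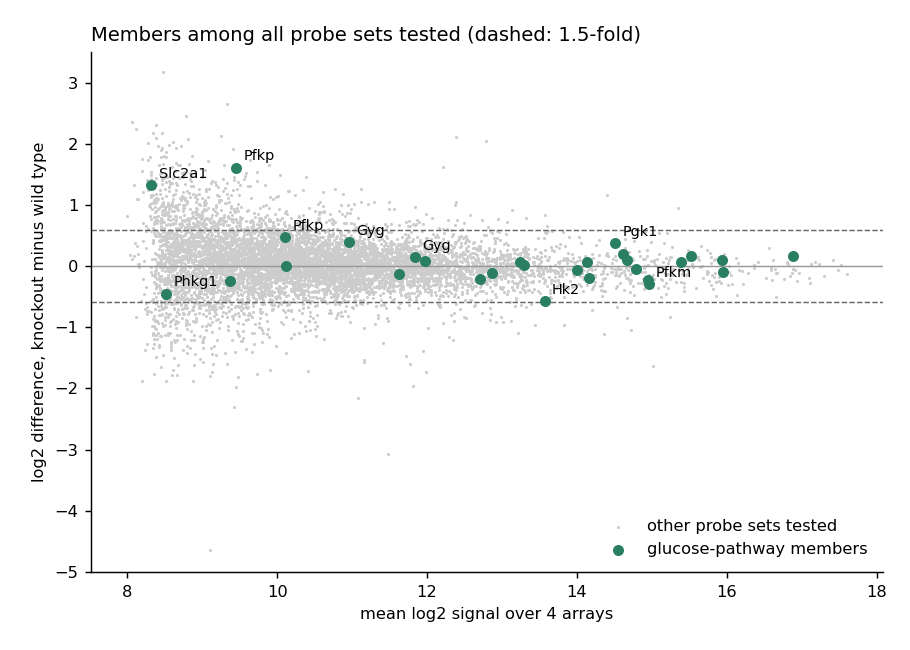
Log2 difference, knockout minus wild type, against the mean log2 signal over the 4 arrays for each of the 7453 probe sets tested, with the 29 member probe sets as large green points and dashed lines at 1.5-fold. Slc2a1 and the weaker Pfkp probe set lie above the upper line, Hk2 lies just inside the lower line, and most other members lie near 0 at high signal.

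**Figure D2:**
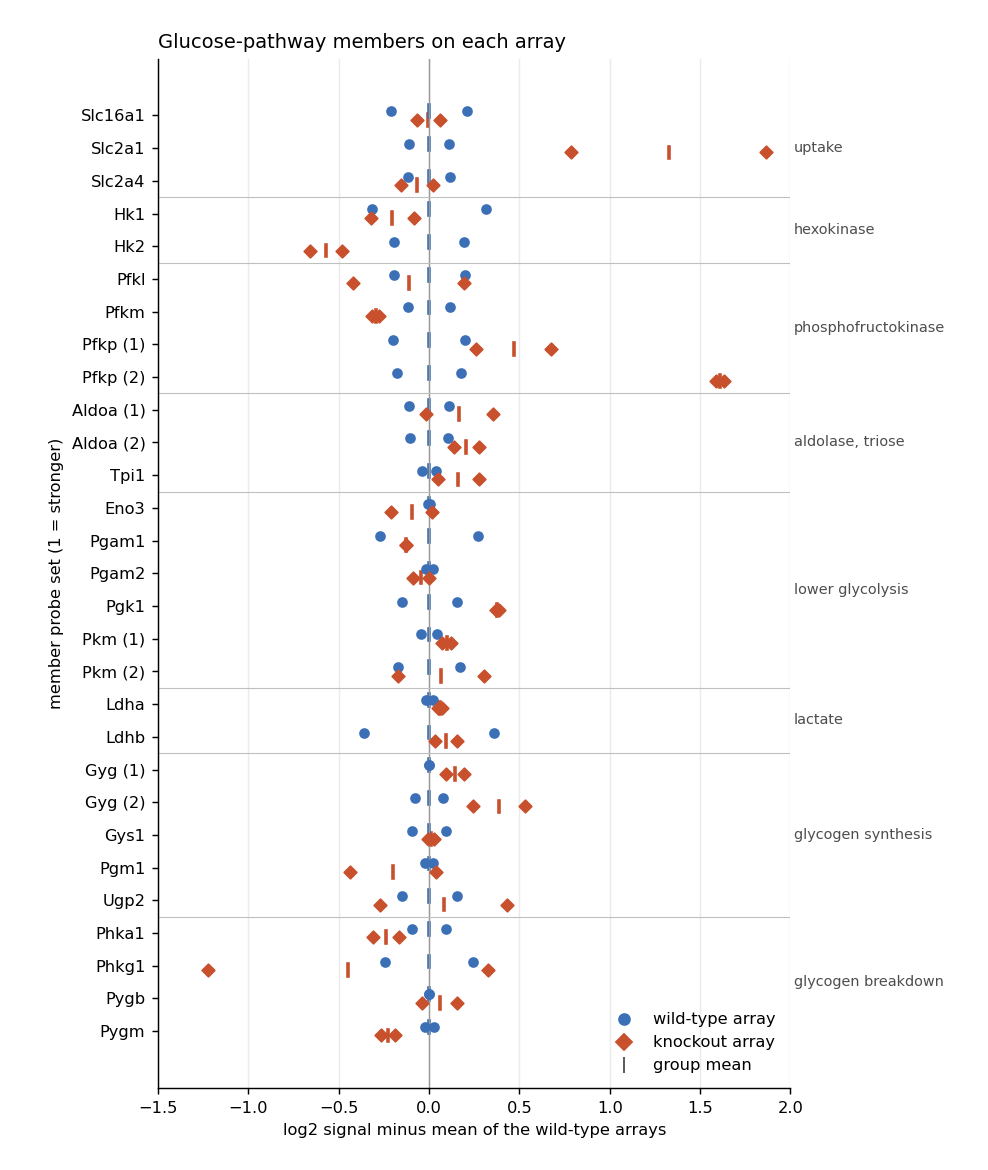
Log2 signal of each member probe set on each array, minus the mean of the wild-type arrays, with circles for the 2 wild-type arrays, diamonds for the 2 knockout arrays and bars for group means, ordered by role. Both knockout arrays lie to the right of both wild-type arrays for 10 probe sets, among them those of Slc2a1, Pfkp, Gyg and Pgk1, and to the left for Hk2, Pfkm, Phka1 and Pygm.

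Glucose enters myocytes through 2 main carriers. Slc2a4, the insulin-responsive transporter GLUT4, gave 15455 and 18114 in wild type and 15040 and 16992 in knockout. The groups overlapped, and the log2 difference was -0.07 (SE 0.22, 95% interval -0.64 to 0.51). A second Slc2a4 probe set was under the brightness filter. Slc2a1, the basal transporter GLUT1, which is also abundant in endothelium and other cell types, gave 187.4 and 218.2 in wild type and 736.5 and 349.0 in knockout. Both knockout arrays lay above both wild-type arrays, but they differed from each other by more than the wild-type arrays did. The log2 difference was 1.33 (SE 0.41, unadjusted p = 0.027, limma adjusted p = 0.694), and it was 0.79 without knockout replicate 1. Slc2a1 was dim: its wild-type mean of 202.8 lay under the brightness filter of 350.6, and only its knockout signal carried it past that filter. With the floor raised to the 40th percentile its log2 difference was 0.57. Slc16a1, the lactate and pyruvate carrier MCT1, gave 956.7 and 1283 in wild type and 1057 and 1156 in knockout, with the knockout values between those of wild type.

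Hexokinases trap glucose as glucose 6-phosphate. Hk2, the form rich in striated muscle, gave 12960 and 16964 in wild type and 10602 and 9391 in knockout. Both knockout arrays lay below both wild-type arrays, 1.49-fold on average, just inside the 1.5-fold limit (log2 -0.57, SE 0.24, 95% interval -1.21 to 0.06, limma adjusted p = 0.745). It lay past that limit after median scaling (-0.61), when knockout replicate 1 was left out (-0.66) and when wild-type replicate 1 was left out (-0.77). It lay inside the limit after quantile normalization (-0.53), and without each array in turn it ran from -0.77 to -0.38. Hk1, the form found in most tissues, gave 8896 and 5752 in wild type and 6748 and 5724 in knockout, and the groups overlapped (log2 -0.20).

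Phosphofructokinase commits sugar to glycolysis, and all 3 of its forms had probe sets bright enough to test. Pfkm, the muscle form, gave 32570 and 38227 in wild type and 29136 and 28394 in knockout. The knockout arrays lay below without overlap (log2 -0.29, SE 0.21, limma adjusted p = 0.829). Pfkl, the liver form, gave 8893 and 6773 against 8882 and 5797, with overlap (log2 -0.11).

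Pfkp, the platelet form, had 2 probe sets of the same sequence record, and they gave unequal differences. The weaker gave 355.0 and 453.2 in wild type and 1243 and 1207 in knockout, so each knockout array was well above each wild-type array. Its log2 difference was 1.61 (SE 0.23, 95% interval 1.01 to 2.21, unadjusted p = 0.0012, limma adjusted p = 0.466). This was a 3.05-fold difference and the lowest p of any member. The probe set carries one of the suffixes that mark probes shared with other sequences or sets. Over the alternatives its log2 difference ran from 1.43 to 1.79 and its adjusted p from 0.355 to 0.780. The stronger gave 1079 and 816.9 in wild type and 1124 and 1502 in knockout, a log2 difference of 0.47 (SE 0.27, limma adjusted p = 0.810). The groups did not overlap there either, although knockout replicate 1 lay only slightly above wild-type replicate 1. Of the regulators, Pfkfb2, which makes and breaks down the activator fructose 2,6-bisphosphate in heart, was under the brightness filter, at 124.5 and 220.1 against 185.7 and 280.2.

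The next steps split the sugar and oxidise the triose products. Aldoa, the muscle aldolase, gave 123071 and 105888 in wild type and 112892 and 145611 in knockout on its stronger probe set (log2 0.17). The weaker gave 25210 and 21843 against 28372 and 25813 (log2 0.21), with no overlap. Both Aldoa probe sets carry a suffix that marks possible cross-hybridization to related sequences. Aldoc, the brain form, was under the filter at 609.1 and 172.0 against 215.6 and 329.6. Tpi1, whose promoter window holds the receptor's element, gave 45676 and 43370 in wild type and 46019 and 53889 in knockout (log2 0.16, SE 0.21, limma adjusted p = 0.904). Its knockout values lay above without overlap, knockout replicate 1 by little.

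Gapdh, glyceraldehyde 3-phosphate dehydrogenase, was seen through control probe sets that were kept out of the test. The one at its 3′ end gave 151584 and 136887 in wild type and 127636 and 165979 in knockout, a ratio of means of 1.02, and the one at its 5′ end had a ratio of 0.970. Knockout values spanned those of wild type at both ends. The Gapdh ratio of 5′ to 3′ signal was 1.04 and 1.01 in wild type and 0.994 and 0.968 in knockout.

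Of the lower glycolytic enzymes, Pgk1, phosphoglycerate kinase and the first ATP-yielding step, stood furthest from wild type. It gave 22711 and 18392 in wild type and 26418 and 26714 in knockout (log2 0.38, SE 0.22, 95% interval -0.20 to 0.96, limma adjusted p = 0.810). The knockout arrays were close to each other and above both wild-type arrays. Pgam2 gave 28306 and 29063 in wild type and 27013 and 28646 in knockout (log2 -0.04), and Pgam1 gave 3966 and 2726 against 3011 and 3009 (log2 -0.13). Eno3 gave 65792 and 65224 in wild type and 56692 and 66203 in knockout (log2 -0.10). Groups overlapped for all 3 of these. Pkm, pyruvate kinase of muscle and most other tissues, gave 58627 and 62448 against 65852 and 63638 on the stronger of its 2 probe sets (log2 0.10, no overlap) and overlapped on the other (log2 0.06). Both Pkm probe sets carry a suffix that marks possible cross-hybridization.

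Lactate dehydrogenase interconverts pyruvate and lactate. Ldhb, the heart subunit, gave 19618 and 32225 in wild type and 27984 and 25740 in knockout. Both knockout values lay between those of wild type (log2 0.09, SE 0.31). Ldha, the muscle subunit, gave 41551 and 42663 in wild type and 43633 and 44235 in knockout. It varied little, and the knockout arrays were higher without overlap by a small step (log2 0.06, SE 0.19, 95% interval -0.45 to 0.57).

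Of 5 probe sets for genes that build glycogen, 4 had a higher mean in knockout and 1 a lower one, and none passed the threshold. Gyg, glycogenin, which primes the polymer, had no overlap on either probe set, with 1840 and 1650 against 2059 and 2522 on the weaker (log2 0.39, SE 0.22, limma adjusted p = 0.810) and 3478 and 3471 against 3967 and 3704 on the stronger (log2 0.14). The stronger Gyg probe set carries a suffix that marks possible cross-hybridization. Gys1, the muscle glycogen synthase, gave 10700 and 9411 in wild type and 10005 and 10216 in knockout, with overlap (log2 0.01, 95% interval -0.53 to 0.55). Ugp2, which makes the UDP-glucose donor, and Pgm1, a phosphoglucomutase that links glycogen to glycolysis, overlapped as well, with log2 differences of 0.08 and -0.20. Pgm1 was low on knockout replicate 1 alone, at 14483 against 19303 to 20110 elsewhere.

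Of the 4 probe sets for genes that break glycogen down, 2 lay lower in knockout without overlap, where 16.7% of all probe sets tested did so. Pygm, the muscle phosphorylase, gave 33769 and 34957 in wild type and 30113 and 28606 in knockout (log2 -0.23, SE 0.20, limma adjusted p = 0.839). Pygb, the brain form that is also found in heart, gave 9486 and 9490 against 10575 and 9246, with overlap (log2 0.06). Phka1, the muscle regulatory subunit of phosphorylase kinase, gave 674.1 and 769.9 in wild type and 581.3 and 642.5 in knockout (log2 -0.24). Phkg1, its muscle catalytic subunit, gave 508.5 and 362.2 against 537.6 and 183.5, where knockout replicate 2 alone was low (log2 -0.45, SE 0.57).

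Muscle and other isoforms of a step were then compared within each array, as log2 of the muscle or heart isoform minus log2 of the other on the strongest probe set of each. A change in this ratio shows that the isoforms changed unequally and not which is more abundant. Of 10 pairs, 7 could be measured. Enolase, the bifunctional phosphofructokinase regulators and aldolase each had an isoform that was dim or had no probe set. In 5 of 7 pairs the ratio was lower in knockout on average, and in 3 of them both knockout arrays lay below both wild-type arrays. With all 4 arrays 0 pairs were higher without overlap. For single probe sets the groups did not overlap for 37.4% of all tested, 20.7% higher and 16.7% lower. Those shares are for single probe sets and not for ratios of 2, so the 3 of 7 pairs cannot be judged against them. One of the 3 pairs, Slc2a4 over Slc2a1, is described without a test, because Slc2a1 passed the brightness filter only through its high knockout signal, which favours a lower ratio. With no filter 8 pairs could be measured and the same 3 lay lower without overlap, and with the filter at the 60th percentile Slc2a1 was out and 2 of 6 did. The count of pairs with a lower mean was 7 of 7 without wild-type replicate 1 and 3 of 7 without wild-type replicate 2. The pairs share arrays, and those of phosphofructokinase share Pfkm. Over all probe sets tested the median log2 difference fell from 0.14 in the dimmest 20% to -0.05 in the brightest 20%. Slc2a1 lay in the dimmest 20% and the stronger Pfkp probe set at the 44.7th percentile. Slc2a4, Pfkm, Pygm and Pygb lay in the brightest 20%. After quantile normalization the ratio differed by -1.19 for Slc2a4 over Slc2a1, -0.64 for Pfkm over Pfkp and -0.25 for Pygm over Pygb. The part of signal level in the ratios was not tested.

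The Slc2a4 ratio over Slc2a1 was 6.37 and 6.38 in wild type and 4.35 and 5.61 in knockout, a difference of -1.39 on the log2 scale. Most of that came from Slc2a1, since Slc2a4 differed by -0.07. It was -0.64 with the floor at the 40th percentile, where the groups overlapped, -0.77 without knockout replicate 1 and -2.02 without knockout replicate 2. The Pfkm ratio over Pfkp was 4.92 and 5.55 in wild type and 4.70 and 4.24 in knockout, a difference of -0.76, to which both genes contributed. It was -1.33 with the mean of the 2 Pfkp probe sets, -0.45 without wild-type replicate 2 and -0.54 without knockout replicate 2. The Pygm ratio over Pygb was 1.83 and 1.88 in wild type and 1.51 and 1.63 in knockout, a difference of -0.29 with close replicates in both groups. It stayed between -0.35 and -0.23 without each array in turn.

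For the other pairs the groups overlapped. The difference was -0.37 for Hk2 over Hk1, where wild-type replicates lay at 0.54 and 1.56, and -0.18 for Pfkm over Pfkl. It was 0.08 for Pgam2 over Pgam1 and 0.03 for Ldhb over Ldha. By an exact permutation test, two-sided, Pfkm over Pfkp and Pygm over Pygb had p = 0.33 each, the smallest that 2 against 2 arrays allow, and 1 after Benjamini-Hochberg adjustment over the 6 pairs other than Slc2a4 over Slc2a1. The other exact permutation p-values were 0.667 and 1. Several signs rested on the wild-type arrays. Without wild-type replicate 1 all 7 pairs lay lower without overlap. Without wild-type replicate 2 the same 3 lay lower without overlap and 3 lay higher, namely Hk2 over Hk1 (0.14), Pgam2 over Pgam1 (0.37) and Ldhb over Ldha (0.37), and Pfkm over Pfkl was 0.13 with overlap. Pfkm over Pfkl also turned to 0.11 without knockout replicate 1, and Ldhb over Ldha to -0.04.

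**Figure D3:**
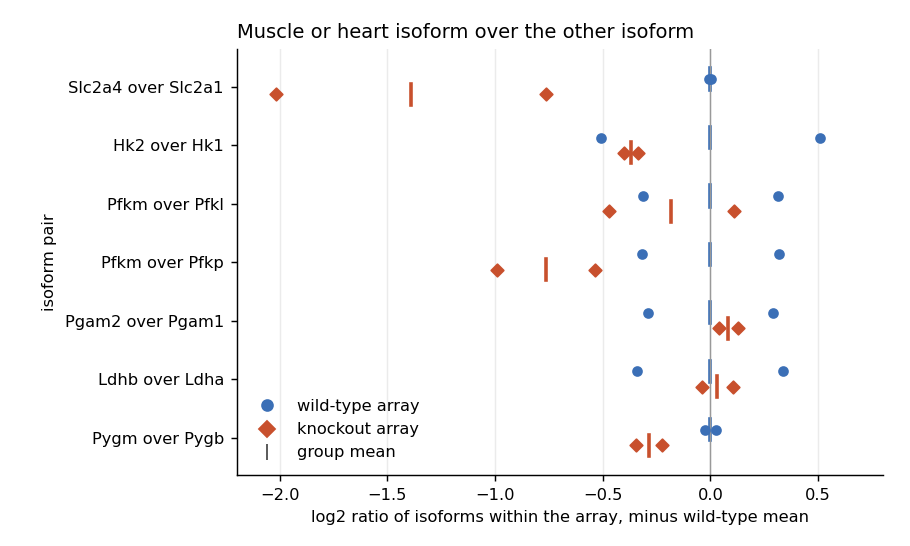
Log2 ratio of the muscle or heart isoform to the other isoform within each array, minus the wild-type mean, for the 7 measured pairs, with circles for the 2 wild-type arrays, diamonds for the 2 knockout arrays and bars for group means. Both knockout arrays lie left of both wild-type arrays for Slc2a4 over Slc2a1, Pfkm over Pfkp and Pygm over Pygb, and the wild-type arrays are spread apart for Hk2, Pfkm, Pgam2 and Ldhb.

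In ventricle RNA, fewer cells of a type and less RNA per cell cannot be told apart, and several non-muscle isoforms are made by other cells. Markers of some other cell types moved with genotype beside these results. As the background to the counts that follow, 20.7% of all probe sets tested were higher and 16.7% lower without overlap. Of 5 fibroblast markers 5 were higher without overlap, with a summed signal of 58643 and 68070 in wild type and 79016 and 82047 in knockout. For smooth muscle, 1 of 3 markers bright enough was higher without overlap, Acta2, and the sums were 8035 and 6474 against 22412 and 14298. The higher sum came from Acta2 alone, with means of 3522 in wild type and 14834 in knockout. Tagln (2562 against 2416) and Myh11 (962.3 against 931.9) overlapped, and Cnn1 was under the filter. Of 3 atrial markers 3 were higher without overlap, with sums of 10715 and 8885 against 17396 and 17050 over 4 markers. Of 5 skeletal muscle markers bright enough 3 were higher and 1 lower without overlap, with sums of 7143 and 7059 against 11175 and 8038 over 9 markers. Most of the higher sum came from Pvalb, with 3126 and 3063 in wild type and 6744 and 3715 in knockout. The defining Myh1, Myh2, Tnni2 and Tnnt3 were under the filter. Of 4 endothelial markers 2 were lower without overlap and 0 higher, with sums of 12559 and 10273 against 7993 and 8589. Of 2 platelet markers measured, Pf4 was under the filter and Gp9 was higher without overlap, with sums of 658 and 550 against 933 and 706, but the Gp9 wild-type mean of 322.3 was under the filter, so only its knockout signal carried it past. Among 3 erythroid markers 0 were higher and 1 lower without overlap, and the sums of 204418 and 148883 overlapped those of 157613 and 223307. For adipocytes 2 of 4 were higher, among them Adipoq, which also passed the filter only through knockout, and 1 was lower, for immune cells 1 of 4 was higher and 0 lower, and for nerve 0 of 2 were higher and 1 lower. The part of these cell types in the Slc2a1, Pfkp and isoform values was not tested.

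The rest of the pathway was read from a list of 65 further genes, of which 48 had a probe set and 33 were bright enough, with 42 probe sets. None passed the threshold. By the 1.5-fold measure 6 lay higher and 0 lower (14.3%, against 11.0% of all probe sets, where 6.84% were higher and 4.2% lower). The median log2 difference over the 42 was 0.13, against 0.03 over all probe sets tested. The 42 hold several probe sets for some genes, among them Galm and Mef2c. Over all probe sets tested the median fell from 0.14 in the dimmest 20% to -0.05 in the brightest 20%. The part of signal level in the 0.13 was not tested.

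Of those 6, the kinase Akt1, which carries the insulin signal to glucose uptake and glycogen synthesis, gave 3519 and 4191 in wild type and 5535 and 6118 in knockout (log2 0.60, SE 0.22, limma adjusted p = 0.722). Mef2a, a muscle transcription factor known to act on the Slc2a4 gene, gave 3799 and 4635 against 6097 and 7276 (log2 0.67, SE 0.23, limma adjusted p = 0.705). Both had bright signals. Stbd1, which binds glycogen, gave 742.0 and 333.4 in wild type and 1297 and 1182 in knockout (log2 1.32, SE 0.43, limma adjusted p = 0.694), with wild-type replicate 1 well above replicate 2. G6pd2, a glucose 6-phosphate dehydrogenase that feeds the pentose phosphate pathway, gave 176.8 and 144.1 against 472.3 and 609.7 (log2 1.75). Its wild-type mean was under the brightness filter, so only the knockout arrays carried it past. Pklr, pyruvate kinase of liver and red cells, and Gapdhs, the sperm form of Gapdh, had log2 differences of 1.32 and 0.66 on probe sets whose suffix marks possible cross-hybridization. Pklr was spread from 247.1 to 852.8 within wild type.

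Of the remaining genes in that list, Gbe1, the glycogen branching enzyme, lay just inside the 1.5-fold limit on the lower side, with 752.3 and 811.5 in wild type and 504.5 and 537.9 in knockout (log2 -0.58, SE 0.20, limma adjusted p = 0.694). Akt2, the Akt form most tied to insulin in muscle, gave 5281 and 4896 against 7092 and 6436 (log2 0.41). The other pentose phosphate genes tested, Pgls, Pgd, Rpia, Tkt, Taldo1 and H6pd, lay between -0.13 and 0.13. Gbe1, Akt2 and the pentose phosphate genes are outside the naming rule and were picked with their values in view.

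**Figure D4:**
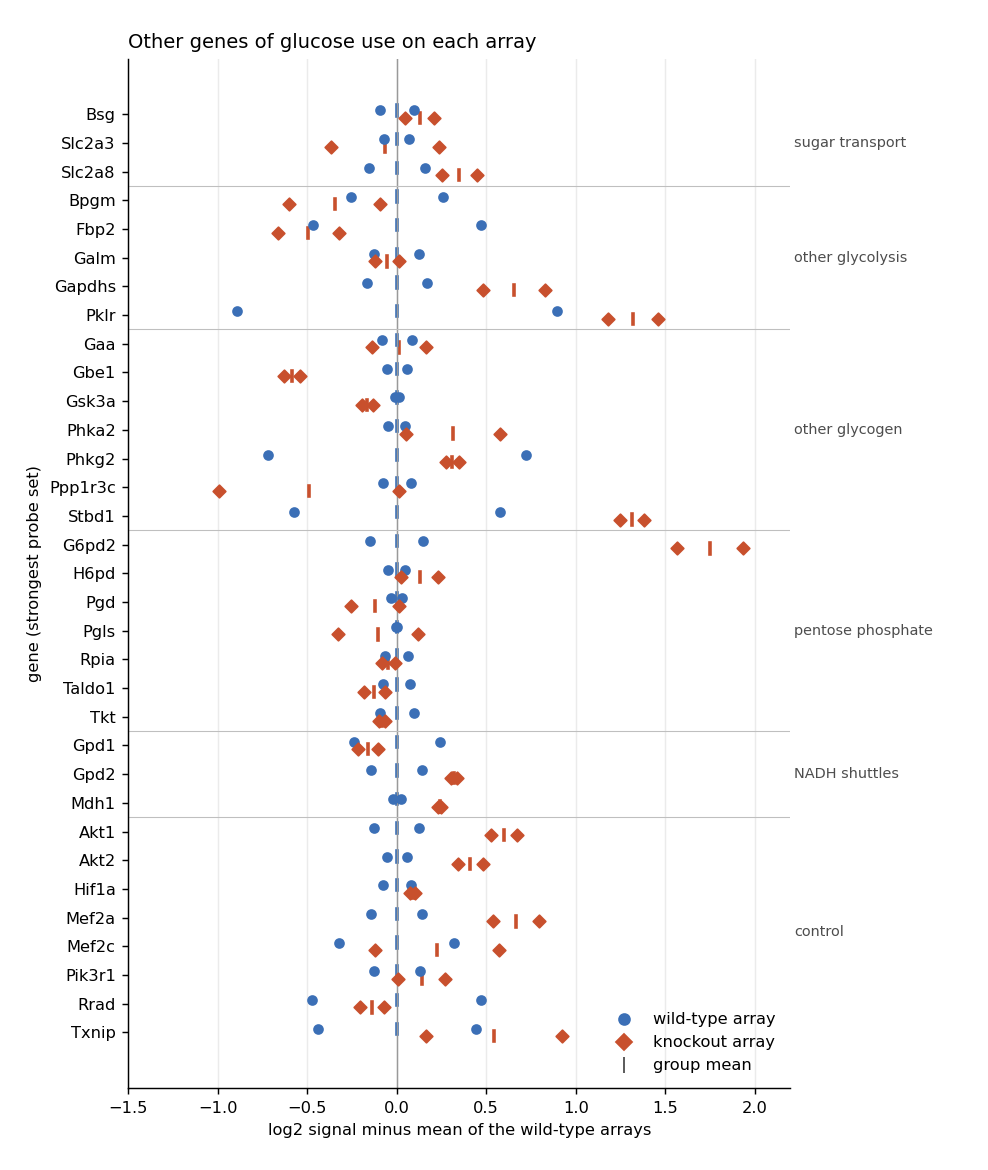
Log2 signal on each array minus the mean of the wild-type arrays for the strongest probe set of the 33 further genes of glucose use, with circles for the 2 wild-type arrays, diamonds for the 2 knockout arrays and bars for group means. Both knockout arrays lie to the right for Akt1, Akt2, Mef2a, Stbd1, Pklr, Gapdhs, G6pd2 and several genes with smaller differences, and to the left for Gbe1 and Gsk3a.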

How the data were processed

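The deposited values were a signal intensity per probe set, linear and already scaled by the authors: the mean after leaving out the lowest and highest 2% of 12488 probe sets was 1501 on each of 4 arrays, 2 per genotype. The software, summary method and build are not given in the sources used here. Per the labels' protocols, RNA was primed with oligo-dT and transcribed into biotin-labelled cRNA. Precision is limited by there being only 4 arrays.

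Gene symbols came from the platform annotation: 10855 probe sets had 1 symbol, 396 several and 1237 none, and 10839 matched RefSeq (GRCm38.p6) by gene identifier. The 66 control probe sets, and probe sets with a mean under the 40th percentile (350.6), were left out, leaving 7453. Signals were floored at the 20th percentile (110) before log2. The genotype difference was fitted by lmFit and eBayes of limma 3.58.1, under R 4.3.3 (two-sided, Benjamini-Hochberg over all 7453), and the steps were tested on simulated data. Array numbers were not used as pairs. The members and lists, and the rule for naming genes, were chosen with earlier results of these data known. Named with full values were member probe sets at least 1.5-fold from wild type without overlap, both isoforms of each pair and, of the further genes, those 1.5-fold without overlap. Other members are given for completeness. Alternatives changed the floor, filter, normalization, prior, probe sets and arrays.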

Additional observations from a re-analysis of the deposited data

How the results depend on the processing

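Each array in turn, the floor, the filter, the normalization, the prior and the choice of probe sets were varied. Of all probe sets, 1 passed the threshold as reported, 0 with the floor at the 5th or 40th percentile, with no filter and without suffixed probe sets, 2 with the filter at the 60th percentile and with the trend and robust prior, and 0 without any 1 array. With the replicate block 0 passed. Over all probe sets tested, deviations of same-numbered arrays correlated at 0.011. A single value over all probe sets cannot exclude a shared factor in some of them, and the labels give only a number. The count of member probe sets at least 1.5-fold without overlap was 2, against 1 with the floor at the 40th percentile (Pfkp) and without suffixed probe sets (Slc2a1), 0 with the filter at the 60th percentile, which removes both, and 2 to 5 without each array. It was 3 with no filter, where the dim second Slc2a4 probe set joined, and 3 after median scaling, where Hk2 joined. Hk2, Phkg1 and the stronger Pfkp probe set joined without knockout replicate 1, and Hk2 and the stronger Pfkp probe set without wild-type replicate 1. Leaving out an array leaves 1 in its group, where no overlap is easier to meet. The counts without each array are therefore not comparable with the 2, and the share of all probe sets was not computed for them. The members' median log2 difference was 0.0626 after quantile normalization, -0.0467 after median scaling, -0.0441 without suffixed probe sets and between -0.0251 and 0.0519 without each array, so its sign is not settled. The isoform pairs without overlap numbered 3 of 7, all lower, against 2 of 7 with the floor at the 40th percentile, 2 of 6 with the filter at the 60th, and 3 to 7 without each array. They numbered 7 without wild-type replicate 1, all lower, and 6 without wild-type replicate 2, 3 lower and 3 higher. Here too 1 array was left in a group, so these are not comparable with the 3 of 7. Adding the synonym-matched probe sets, an alternative chosen after seeing the data, left 2 member probe sets past 1.5-fold. None of the 29 member probe sets passed the threshold under any alternative run (lowest limma adjusted p = 0.355).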

Other observations

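The dim second probe set of Slc2a4 gave 42.8 and 40.1 in wild type and 163.5 and 265.6 in knockout, while the bright one overlapped. With no filter on brightness its log2 difference was 0.92, measured from the floor of 110, since both wild-type values lay under it. The dim second probe sets of Hk2 and Ldhb lay between 6.0 and 48.0 and between 50.1 and 134.8. A probe set shared by Gapdh and its pseudogene copies gave 71484 and 70920 in wild type and 67636 and 80899 in knockout. The brightest Pigq probe set, which matched Gpi1 by synonym only, gave 2443 and 1135 against 2174 and 1550.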
